A study of Rattus norvegicus with 4 samples.

Results

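The proteins that carry zinc and copper across membranes, and the chaperones that hand copper to its enzymes, were followed at the RNA level in rat alveolar macrophages of a water control. The set held the ZnT family (Slc30a genes other than Slc30a1), the ZIP family (Slc39a genes) and 12 genes of copper handling: Atp7a, Atp7b, Slc31a1, Slc31a2, Atox1, Ccs, Cox17, Sco1, Sco2, Commd1, Sod1 and Cp. Members were chosen by gene symbol alone, after array accessions had been matched to RefSeq symbols, and the rule itself uses no measured value, although the set was proposed with earlier results of these data known. Of the 16581 genes named on the array, 32 were members, read by 39 probes. Slc39a10, Slc39a13 and the pseudogene Slc30a9-ps1 had no named probe, Sco2 was not found under this symbol in the gene table, and they were not analysed here.

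The cells were NR8383, an established line first obtained by washing out a healthy rat's lung, which grows partly attached and partly afloat. All 4 samples belonged to 1 group: cells with no genetic change named, after 20 passages, seeded for 48 h in 25 cm2 flasks with 15% serum in the medium, then kept for 4 h with water as the control treatment. Its name also holds ALI, an abbreviation left unexplained in the labels. The series design calls the samples biological replicates and does not say whether they were separate cultures or thaws, so the spread below is the spread between these samples, part of which may be technical. With 1 group there was no comparison of conditions, and being 1 line limits these cells as a model of the alveolar macrophage.

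Zinc and copper are needed by many enzymes and are toxic when free, so cells keep both bound and move them by dedicated carriers. ZIP proteins bring zinc into the cytosol from outside or from organelles, and ZnT proteins move it out of the cytosol into vesicles, organelles or the medium. Copper enters through CTR1 (Slc31a1), is passed by the chaperones ATOX1, CCS and COX17 to the secretory path, to superoxide dismutase 1 and to the mitochondrion, and leaves by the ATPases ATP7A and ATP7B. Macrophages are known to use both metals in defence, starving engulfed microbes of zinc or poisoning them with zinc and copper.

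Signals are given as log2 of the processed intensity minus log2 of the 75th percentile of the same array, so 0 is that percentile. Probes differ in affinity, so a value follows 1 gene across the arrays and does not rank genes. Detection of a gene required the scanner software's flag for a signal well above background, on 4 of 4 arrays, for 1 probe or more. Between 49.2% and 50.3% of gene spots carried that flag on an array, and no spot was saturated. The number of arrays limits the precision. All 10 macrophage markers checked were detected, among them Cd68 and Spi1. Among markers of other cell types, 0 of 7 for alveolar epithelium, 0 of 6 for hepatocytes, 0 of 5 for pancreatic islet and 1 of 5 for fibroblasts and endothelium (Cdh5) were detected. The defining genes Sftpc, Alb, Ins1, Col1a1 and, for T cells, Cd3e were above background on no array.

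Of the 32 members, 26 (81.2%) were detected on every array, none on only some arrays, and 6 on no array. Among all named genes 51.0% were detected, 6.43% on only some arrays and 42.6% on none, and among the 314 other named Slc transporter genes 49.0% were. By family, the count was 11 of 12 ZIP genes, 5 of 9 ZnT genes, 1 of 2 copper importers, 2 of 2 copper pumps, 4 of 4 cytosolic copper genes, 2 of 2 mitochondrial copper genes and the secreted Cp. The 6 that were not well above background were Slc39a12, Slc30a2, Slc30a4, Slc30a8, Slc30a10 and Slc31a1. The flag largely follows the signal, so the lower intensity of the undetected genes was largely built into the calls. The 7 probes of those 6 genes gave intensities between 3.83 and 13.3. The brightest probe of each detected gene never fell below 30.5. The dimmer probes of Atp7b and Slc39a5, both detected genes, fell to 3.84 and 11.5. The dimmest spots with the flag lay at 18.1 to 21.5 on the 4 arrays. Of the 28 values of the undetected probes, 1 exceeded the 99th percentile of the negative controls of its array (7.83 to 13.7): Slc31a1 on replicate 3.

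**Figure D1:**
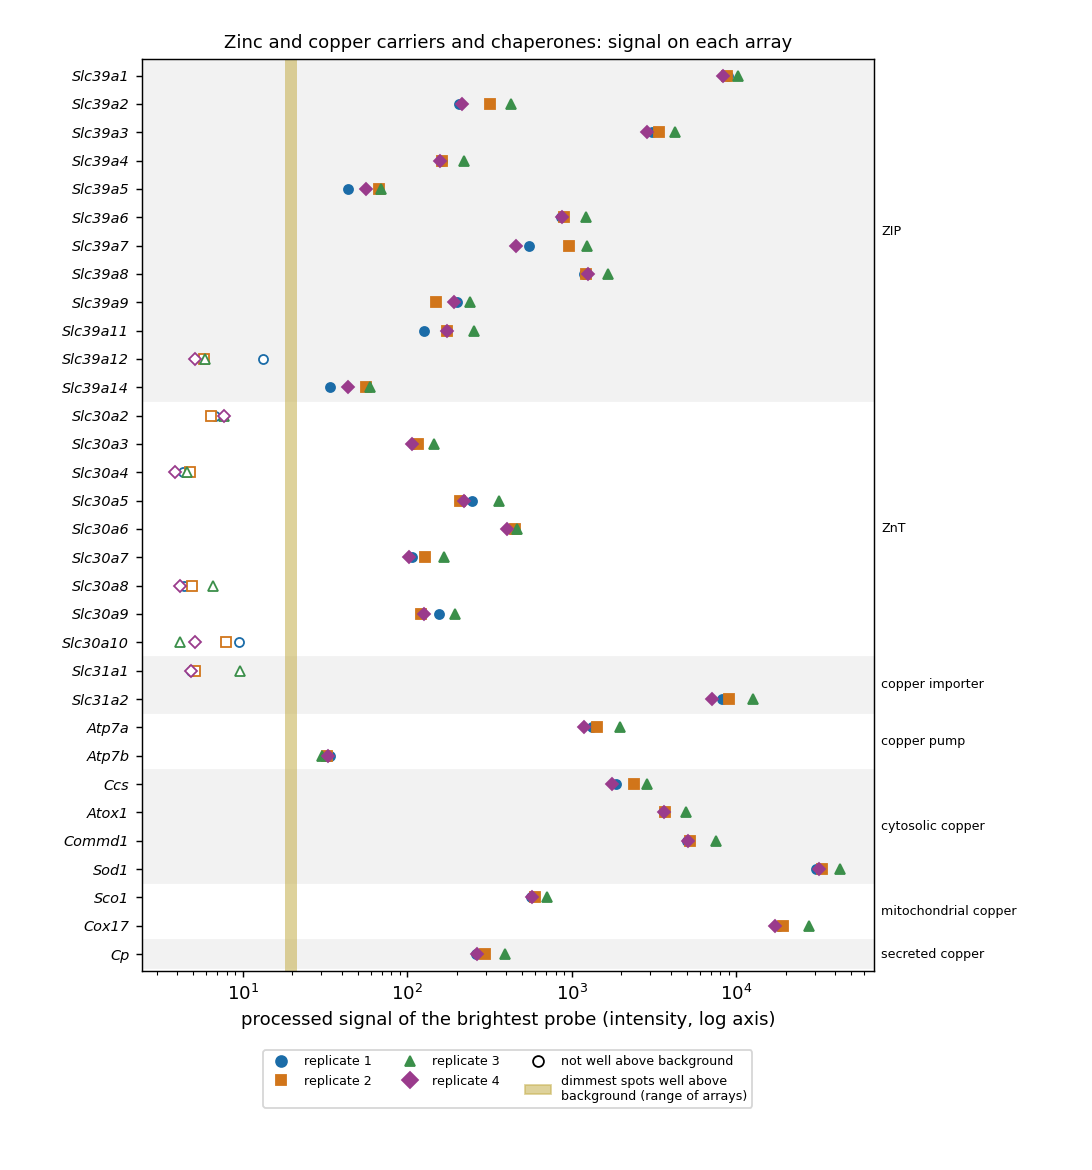
Processed signal of the brightest probe of each member gene (intensity, log axis) on the 4 arrays; open symbols were not well above background, and the vertical band spans the dimmest flagged spots of the arrays (18.1 to 21.5). The 6 undetected genes lie at 13.3 or lower and the 26 detected genes at 30.5 or higher, sorted by a flag that itself largely follows the signal.

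Promoters are shown for 6 members picked as examples. Slc39a7 differed most between replicates among the detected members, and Slc39a3 differed least. Slc31a2 and Slc31a1 are neighbouring copper genes of opposite detection. Slc30a2 and Slc39a12 were not detected. The sequences are RefSeq's for the assembly GRCr8, give the 250 bases before the annotated start, 5′ to 3′, and carry in capitals each match to the core of the metal response element, TGCACNC or TGCGCNC on either strand. MTF1, the zinc-sensing transcription factor, binds such elements. The windows are chr20:4824809-4825058, plus strand; chr7:9327291-9327540, plus strand; chr5:80753368-80753617, plus strand; chr5:80830590-80830839, plus strand; chr5:151843201-151843450, plus strand; and chr17:82262107-82262356, plus strand.
Slc39a7: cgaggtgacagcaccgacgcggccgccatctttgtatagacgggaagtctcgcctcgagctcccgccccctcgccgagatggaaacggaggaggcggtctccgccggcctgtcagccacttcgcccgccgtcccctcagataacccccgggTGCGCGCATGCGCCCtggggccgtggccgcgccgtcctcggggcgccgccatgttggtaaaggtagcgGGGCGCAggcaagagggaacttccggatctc
Slc39a3: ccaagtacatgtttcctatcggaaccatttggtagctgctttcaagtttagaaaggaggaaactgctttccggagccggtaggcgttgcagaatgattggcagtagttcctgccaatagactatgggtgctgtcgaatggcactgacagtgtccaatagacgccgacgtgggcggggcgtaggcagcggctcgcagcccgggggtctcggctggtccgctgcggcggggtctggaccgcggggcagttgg
Slc31a2: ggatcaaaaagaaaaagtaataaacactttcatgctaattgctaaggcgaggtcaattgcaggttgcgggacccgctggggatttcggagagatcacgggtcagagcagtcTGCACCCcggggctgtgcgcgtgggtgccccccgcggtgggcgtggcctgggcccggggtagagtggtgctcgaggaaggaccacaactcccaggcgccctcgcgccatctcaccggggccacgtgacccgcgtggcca
Slc31a1: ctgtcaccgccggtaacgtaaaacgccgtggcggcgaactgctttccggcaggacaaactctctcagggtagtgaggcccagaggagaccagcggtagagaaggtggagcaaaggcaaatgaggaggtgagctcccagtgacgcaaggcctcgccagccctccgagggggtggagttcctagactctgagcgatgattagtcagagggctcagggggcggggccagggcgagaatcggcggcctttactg
Slc30a2: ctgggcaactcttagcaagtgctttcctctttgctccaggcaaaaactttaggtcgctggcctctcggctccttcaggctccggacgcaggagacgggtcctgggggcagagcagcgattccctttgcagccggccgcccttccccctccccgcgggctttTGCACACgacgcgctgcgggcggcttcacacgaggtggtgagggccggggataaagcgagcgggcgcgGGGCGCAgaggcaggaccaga
Slc39a12: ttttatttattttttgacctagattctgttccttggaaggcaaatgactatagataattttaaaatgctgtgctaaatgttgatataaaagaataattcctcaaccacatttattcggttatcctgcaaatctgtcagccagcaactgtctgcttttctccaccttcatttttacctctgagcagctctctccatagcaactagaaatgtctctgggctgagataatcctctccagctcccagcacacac

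The Slc39a7 window held 4 matches, some of which overlap, the most of any member. Slc30a2 had 2, with another in the 50 bases after its start, and Slc31a2 had 1, and these letters were not found in the windows of Slc39a3, Slc31a1 or Slc39a12. Counted over the same 250 bases, the zinc exporter gene Slc30a1 held 2 matches and the metallothionein gene Mt1 held 6. Full windows of 300 bases, 50 of them after the start, were at hand for 27 of the 32 members, and 11 (40.7%) held a match. Over all 27457 such windows the share was 25.0%. Among detected genes alone it was 39.1% for the 23 members, beside 35.4% over the 7093 windows of detected named genes. Of the 4 undetected members 2 held a match, beside 25.2% of undetected named genes. A match is a run of letters and was not tested as a site, and the number of matches was not tested against detection or spread.

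Base composition differed widely between members. The detected members had a median GC content of 60.7% and ranged from 36.7% (Atp7a) to 70.3% (Slc30a3), beside a median of 60.7% for all detected named genes. The ratio of CpG found to CpG expected had a median of 0.759 in the 23 detected members and 0.783 in all detected named genes, against 0.327 in named genes that were not detected. Slc39a2 and Slc39a5 were detected with ratios of 0.197 and 0.164, while Slc30a4 was not detected with a ratio of 0.984 and Slc31a1 with one of 0.776.

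Of the ZIP genes 11 of 12 were detected, with spans between replicates from 1.07-fold (Slc39a3) to 1.87-fold (Slc39a7). Slc39a1 (ZIP1), an importer of the plasma membrane, gave 3.33, 3.23, 3.05 and 3.32 on replicates 1 to 4 by the brighter of its 2 probes. It was lowest on replicate 3, where its intensity before scaling was the highest, with a mean of 3.23 ± 0.13 (SD, n = 4). Slc39a3 (ZIP3), its close relative, gave 1.81, 1.87, 1.78 and 1.77. Its highest and lowest arrays differed by 1.07-fold, the narrowest span of any detected member. Slc39a2 (ZIP2) belongs to the same branch and gave -2.08, -1.55, -1.53 and -1.94, so replicates 2 and 3 lay above replicates 1 and 4. Replicate 3, the highest, was 1.46-fold above replicate 1, the lowest.

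Slc39a7 (ZIP7) sits in the endoplasmic reticulum and Golgi membranes and releases stored zinc into the cytosol. It gave -0.68, 0.049, -0.0040 and -0.85 on replicates 1 to 4, from intensities of 547, 964, 1233 and 460.4. Replicates 2 and 3 were high and replicates 1 and 4 low, and the span of 1.87-fold was the widest of the detected members. Its SD of 0.46 exceeded that of 97.1% of detected genes. In the limma variance test, which sets the variance of a gene between arrays against the variance fitted for genes of the same signal, it had an unadjusted p of 0.00336 and did not pass after Benjamini-Hochberg adjustment over all 8455 detected genes (adjusted p = 0.340, limma). The gene was read by 1 probe with 1 spot.

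Slc39a6 (ZIP6), of the LIV-1 branch, gave -0.038, -0.050, -0.026 and 0.072. Slc39a8 (ZIP8), which carries zinc, manganese and cadmium, gave 0.44, 0.38, 0.43 and 0.59, highest on replicate 4. Slc39a14 (ZIP14), a carrier of zinc, manganese and free iron known from the liver in inflammation, was dim, with intensities of 33.7, 56.0, 59.1 and 43.4. All 3 were detected on every array, and the replicates of Slc39a6 lay within 1.09-fold while those of Slc39a14 spanned 1.56-fold. Slc39a14 was lowest on replicate 1, as were Slc39a2, Slc39a11 and, by its brighter probe only, Slc39a5. Replicate 1 held the lowest value of 24.5% of all detected genes.

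Slc39a4 (ZIP4), the main zinc importer of the gut lining, was detected at -2.44, -2.52, -2.48 and -2.40, a span of 1.09-fold. Slc39a5 (ZIP5), which faces the blood side of gut cells, gave -4.33, -3.78, -4.16 and -3.88 by its brighter probe. Both are known from the gut, and both RNAs were above background on all 4 arrays, with intensities of 158 to 221 and of 43.6 to 69.3. Slc39a9 (ZIP9), a Golgi carrier, gave -2.13, -2.64, -2.36 and -2.12, with replicate 2 the lowest. Slc39a11 (ZIP11), which stands apart from the other ZIP branches, gave -2.80, -2.42, -2.29 and -2.25, with replicate 1 the lowest. Slc39a12 (ZIP12), known mainly from brain, stayed at intensities of 13.3, 5.82, 5.86 and 5.15 and was not well above background.

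Of the ZnT genes 5 of 9 were detected: Slc30a3, Slc30a5, Slc30a6, Slc30a7 and Slc30a9. Slc30a5 and Slc30a6 (ZnT5 and ZnT6) form a heterodimer that loads zinc into secreted and membrane enzymes. Slc30a5 gave -1.82, -2.15, -1.78 and -1.92 on replicates 1 to 4 and was lowest on replicate 2. Slc30a6 gave -1.03, -1.05, -1.41 and -1.05 and was lowest on replicate 3, below the other 3 arrays. Before scaling, its intensities of 431, 449, 466 and 402 were instead highest on replicate 3. On the scaled values the partners were thus lowest on different arrays, and neither passed the limma variance test (adjusted p = 0.995 for both, limma). Slc30a7 (ZnT7), which serves the same enzymes alone, gave -3.04, -2.87, -2.88 and -3.03. Slc30a9 (ZnT9), assigned to mitochondria, gave -2.49, -2.94, -2.66 and -2.72, with replicate 1 the highest and replicate 2 the lowest.

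Slc30a3 (ZnT3), which fills synaptic vesicles in neurons, was detected on all arrays at intensities of 108, 116, 146 and 107. It was the 1 member printed as 10 spots per array. The scaled values were -3.02, -3.01, -3.08 and -2.96 on replicates 1 to 4, with an SD between arrays of 0.052. Single spots of the same array had SDs of 0.142, 0.0985, 0.130 and 0.137; the array values are means over 9 or 10 spots, so the 2 kinds of SD are not on the same footing. The remaining 4 ZnT genes were not well above background. Slc30a8 (ZnT8), the zinc pump of insulin granules, stayed at intensities of 4.36, 4.92, 6.62 and 4.18 by the brighter of its 2 probes. Slc30a2 (ZnT2) and Slc30a4 (ZnT4), known from the lactating mammary gland, lay at 6.39 to 7.67 and at 3.89 to 4.76. Slc30a10 (ZnT10), which exports manganese, lay at 9.42, 7.91, 4.15 and 5.12. Apart from Slc30a8, each was read by 1 probe.

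The 2 copper importer genes gave opposite calls. Slc31a2 (CTR2), found mainly on endosomes and lysosomes, gave intensities of 8169.7, 8999, 12698 and 7065 and scaled values of 3.22, 3.27, 3.36 and 3.09. Slc31a1 (CTR1), the high-affinity importer of the plasma membrane, gave intensities of 4.82, 5.16, 9.68 and 4.84. By 1 named probe it was well above background on no array. The 2 genes lie on rat chromosome 5 with 1 gene, Fkbp15, between them in RefSeq order. Whether that probe reads the transcript made in these cells was not tested.

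Both copper pumps were called detected, on different footing. Atp7a, the Menkes protein, which loads copper enzymes in the Golgi and moves toward the phagosome in activated macrophages, gave 0.60, 0.61, 0.66 and 0.50, and both of its probes were above background on every array. Atp7b, the Wilson disease protein of the liver, gave intensities of 33.7, 32.4, 30.5 and 32.8 by 1 probe. Its other probe stayed at 4.12, 4.64, 10.3 and 3.84 and was well above background on none. On the scaled values replicate 3 of Atp7b was the lowest (-4.70, -4.85, -5.34 and -4.66), where the intensities were level and the 75th percentile of array 3 was the highest of the 4. All 6 hepatocyte markers checked, including Alb and Ttr, lacked the flag on every array. Neither the source of the Atp7b signal nor the disagreement of its probes was tested.

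The chaperones of the cytosol and their targets were all detected, with a median SD of 0.063 between replicates. Atox1, which hands copper to the ATP7 pumps, gave 2.05, 1.99, 2.00 and 2.13. Ccs, which loads copper into superoxide dismutase 1, gave 1.07, 1.36, 1.22 and 1.07, with replicate 2 the highest at a span of 1.23-fold. Sod1, the copper and zinc superoxide dismutase itself, gave 5.12, 5.15, 5.11 and 5.25, with a mean of 5.16 ± 0.062 (SD, n = 4). Commd1, part of the complex that sorts ATP7 proteins on endosomes, gave 2.51, 2.49, 2.60 and 2.60. Their SDs lay between 0.058 and 0.14, and those of Atox1, Commd1 and Sod1 were below the SD fitted for genes of their signal (0.12 to 0.14).

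In the mitochondrial branch, Cox17, which brings copper to the assembly of cytochrome oxidase, gave 4.37, 4.35, 4.47 and 4.36. Replicate 3 was the highest, and the span was 1.09-fold. Sco1, which receives copper from COX17, gave -0.64, -0.64, -0.81 and -0.54, lowest on replicate 3. Before scaling, its intensities of 564, 600, 705 and 570 were instead highest on replicate 3. Cp, ceruloplasmin, the copper ferroxidase that the liver secretes and macrophages also make, gave -1.76, -1.66, -1.67 and -1.65 by the brighter of 2 detected probes. Replicate 1 lay below the other 3, at a span of 1.07-fold.

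The median SD of the 26 detected members was 0.113, beside 0.144 for all 8455 detected genes tested and 0.146 for the 154 other detected Slc genes. This order turned with the processing: the members' median SD was 0.193 beside 0.180 for all detected genes with scaling to the median of each array, 0.280 beside 0.267 with no scaling, and 0.125 beside 0.123 with normexp background correction. Brightness moved with this: the 10 members at or above the 75th percentile of the array had a median SD of 0.064 (all such genes: 0.116), and the 16 below it a median SD of 0.184 (all such genes: 0.171). No member spanned more than 2-fold, beside 3.26% of detected genes; with scaling to the median of each array, 1 did (Slc39a7). No member was hypervariable, that is, past an adjusted p of 0.05 in the limma variance test, beside 0.237% of detected genes. Slc39a7 alone had an unadjusted p below 0.05 (limma), beside 6.29% of detected genes, and without the signal trend the limma test also called no member.

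**Figure D2:**
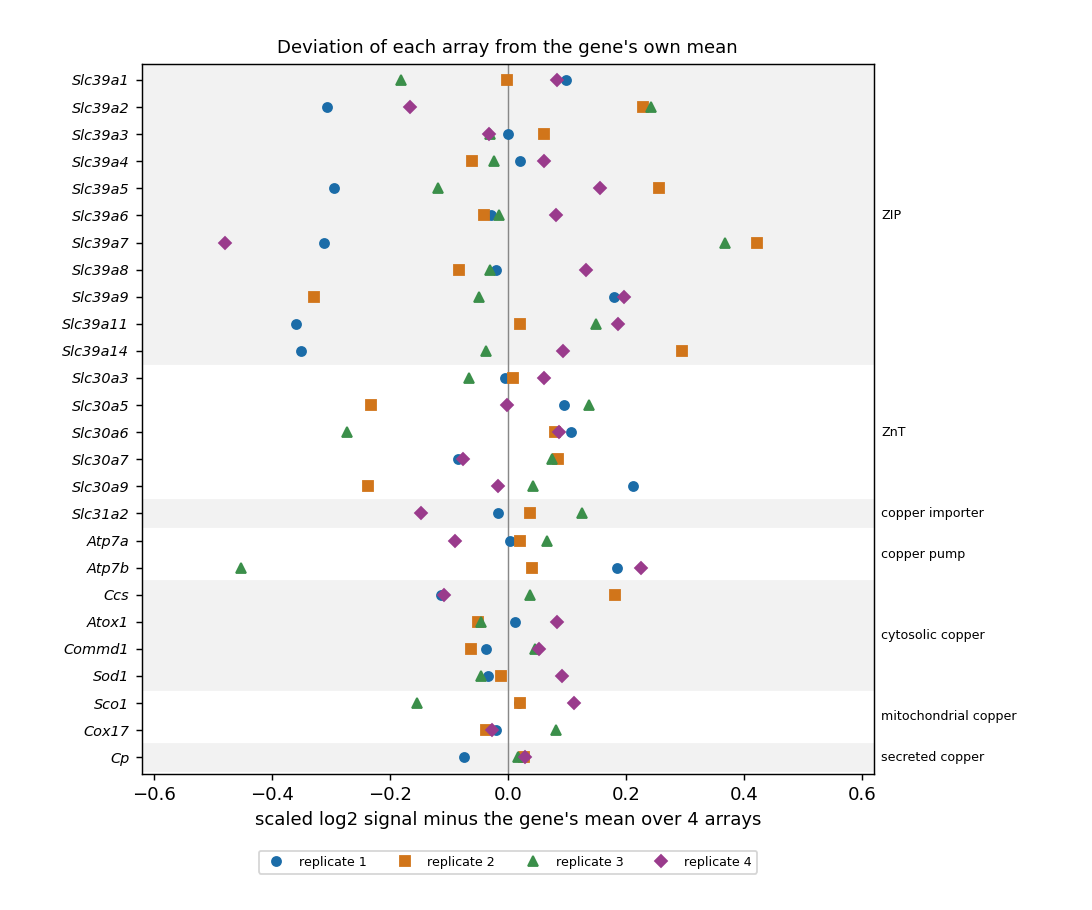
Deviation of each array from the gene's own mean over the 4 arrays (log2, 75th percentile scaling) for the 26 detected members, grouped by role. Slc39a7 has replicates 2 and 3 on the right and 1 and 4 on the left, while Slc39a3, Cp and Slc39a6 hold all 4 arrays within 1.09-fold of each other.

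Each array held the highest value of some of the 26 detected members: 3 on replicate 1, 6 on replicate 2, 5 on replicate 3 and 12 on replicate 4. The lowest value fell on replicates 1 to 4 for 7, 9, 6 and 4 members. Over all detected genes the highest value fell on replicates 1 to 4 for 16.4%, 26.2%, 19.6% and 37.8%. The lowest did so for 24.5%, 17.4%, 36.7% and 21.3%. The median member deviated by -0.018, 0.021, -0.019 and 0.061 on the 4 arrays, beside -0.018, 0.017, -0.032 and 0.038 for the median detected gene.

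**Figure D3:**
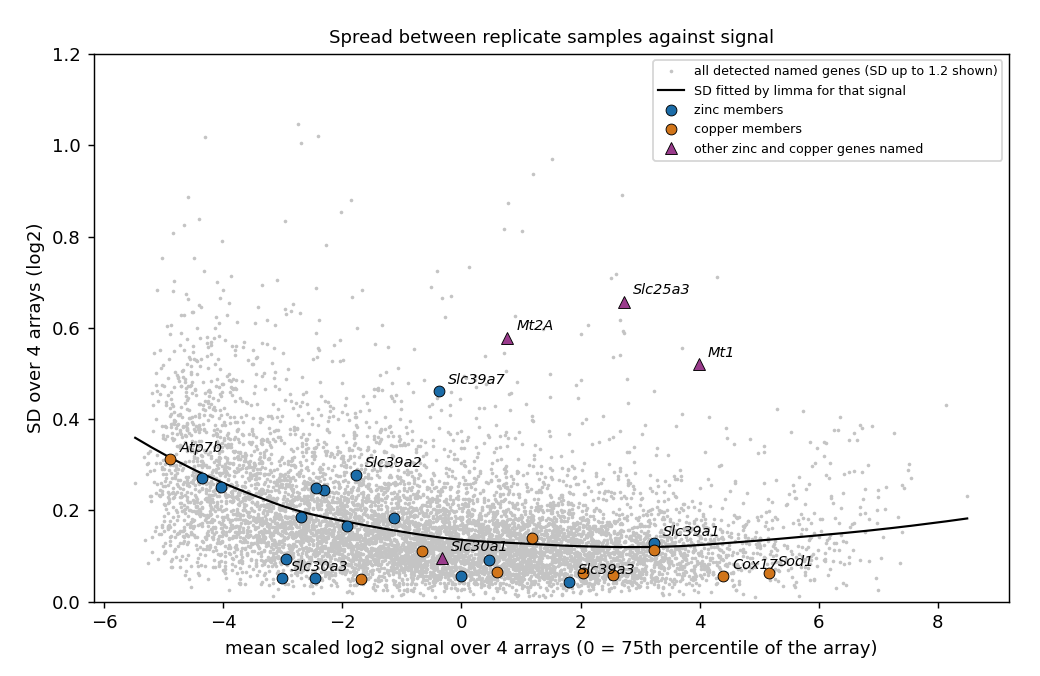
SD over the 4 arrays against mean scaled log2 signal for all detected named genes (grey, SD up to 1.2), the zinc members (blue), the copper members (orange) and 4 other zinc and copper genes (triangles); the line is the SD that limma fitted for each signal. Slc39a7 (SD 0.46) stands above the other members, and Mt1, Mt2A and Slc25a3 (0.52 to 0.66) stand above the line.

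Genes with 2 named probes showed how far 1 gene's readings can part. For Atp7a the brighter probe deviated from its own mean by 0.0035, 0.020, 0.067 and -0.090 on replicates 1 to 4 and the dimmer by 0.015, 0.055, 0.097 and -0.17, so both placed replicate 3 highest and replicate 4 lowest. For Slc39a1 both placed replicate 3 lowest, but the dimmer put replicate 4 at 0.43 and the brighter at 0.084. Its 2 probes also lay far apart in level, at intensities of 8275 to 10244 by the brighter and 104 to 138 by the dimmer. For Slc39a5 they parted: the brighter deviated by -0.29, 0.26, -0.12 and 0.16 and the dimmer by 0.34, 0.52, -0.11 and -0.75, the last value being below detection. Cp had deviations of -0.074, 0.027, 0.018 and 0.029 by the brighter and 0.029, -0.029, 0.18 and -0.18 by the dimmer probe. These disagree on the highest and on the lowest array. Both probes of Slc39a11 placed replicate 1 lowest, but the brighter put replicate 3 at 0.15 and the dimmer at -0.10, near its replicate 1 (-0.13). Both probes of Slc30a8 were well above background on no array.

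**Figure D4:**
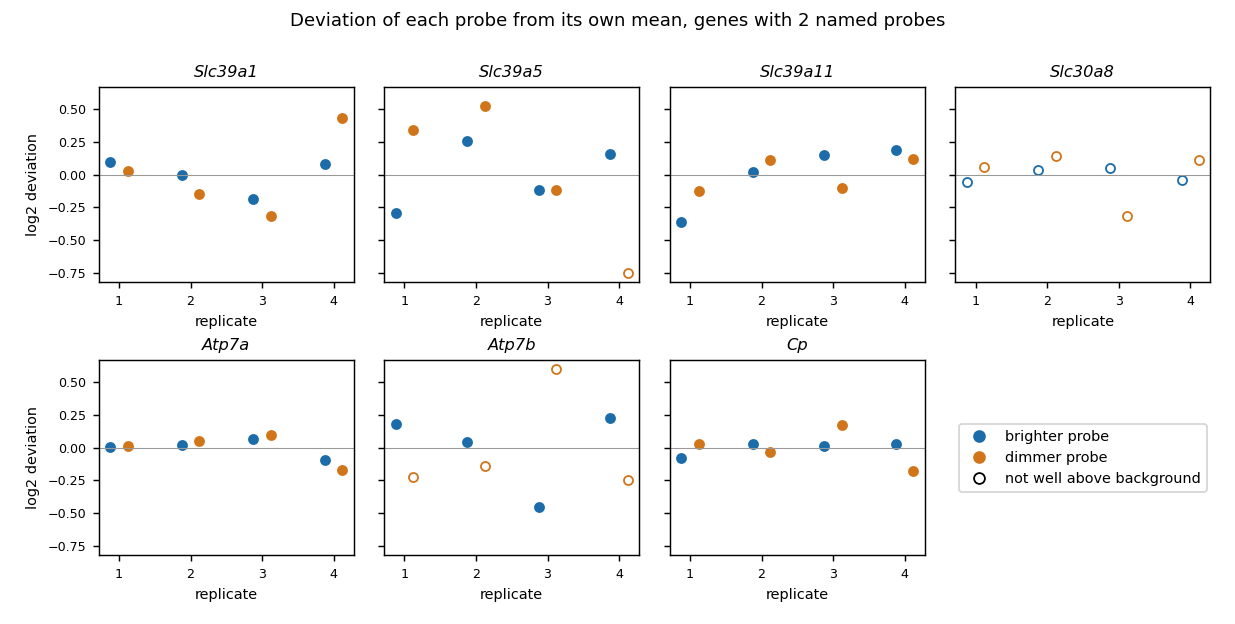
Deviation of each probe from its own mean over the 4 arrays (log2) for the 7 member genes with 2 named probes; open circles were not well above background. The 2 probes of Atp7a order replicates 3 and 4 alike, while those of Slc39a5 part on replicates 1 and 4.

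Other genes of zinc and copper handling, taken from 6 lists with 63 named genes, were detected in 42 cases (66.7%), beside 51.0% of all named genes. All 16 genes of the COMMD family, its partner complex and ATP7 sorting were detected, among them Commd3 (3.11 ± 0.19), Ccdc22 (2.21 ± 0.14) and Vps35l (1.66 ± 0.15) (SD, n = 4). Of 10 genes of protein lipoylation and copper toxicity, 9 were detected, including the ferredoxin Fdx1 (1.30 ± 0.067) and the lipoyl synthase Lias (-0.48 ± 0.079); Lipt2 was not. Of 11 further copper enzymes, a list that leaves out the detected members Sod1 and Cp, hephaestin (Heph, -4.60 ± 0.14) was detected. The diamine oxidase Aoc1 (intensities of 11.7, 4.91, 24.1 and 15.2) was well above background on replicate 3 alone. The other 9 were not detected, among them Sod3, Loxl2, Pam, Dbh and Tyr. Of 8 genes for metal uptake and reduction, 4 were detected (Slc11a1, Slc11a2, Steap3 and App). Of 10 genes of zinc sensing and buffering 6 were detected, and Mt3, Mt4, Gpr39 and Tmem163 were not.

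The zinc exporter Slc30a1 and the metallothioneins Mt1 and Mt2A are classic targets of MTF1. Mt1 gave 3.75, 3.50, 3.99 and 4.71 and Mt2A gave 0.34, 0.30, 0.91 and 1.53 on replicates 1 to 4, both highest on replicate 4. Slc30a1 gave -0.27, -0.44, -0.38 and -0.23, also highest on replicate 4, but with a span of 1.16-fold where Mt1 spanned 2.31-fold and Mt2A 2.35-fold. Mtf1 itself was dim, at -3.83, -3.45, -3.14 and -3.34, and was lowest on replicate 1. None of the 4 passed the limma variance test (adjusted p = 0.995 for Slc30a1, 0.129 for Mt1, 0.0893 for Mt2A and 0.995 for Mtf1, limma). Replicate 4 held the highest value of 37.8% of all detected genes, so nothing is read from these 3 genes sharing it.

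In the mitochondrial list of 8 genes, 6 were detected. Cox11, an assembly factor that inserts copper, had intensities of 34.6, 23.7, 50.5 and 18.6 and was well above background on replicates 1 and 3. Cox19, a helper of the same assembly, had 22.4, 38.7, 50.4 and 34.9 and was well above background on replicates 2 and 3. Slc25a3, the carrier of phosphate and copper in the inner mitochondrial membrane, gave 3.32, 3.11, 2.63 and 1.84 on replicates 1 to 4, from intensities of 8770.1, 8056, 7678 and 2972. Replicate 4 was the lowest, and the span was 2.79-fold. It was the 1 gene of the 42 past the limma variance test (adjusted p = 0.0428, limma), and it lost that call without replicate 3 (adjusted p = 0.379, limma), without replicate 4 (0.513), under quantile normalization (0.132), with the mean over probes (0.0790) and without the signal trend (0.910). Over the 15 alternatives its adjusted p ranged from 0.000411 to 0.910. Along with Mt1 and Mt2A, Slc25a3 made up the 3 of these 42 genes that spanned more than 2-fold, beside 3.26% of all detected genes. The 1 call by the limma variance test stands beside 0.237% of all detected genes. Of the 42 genes, 6 had an unadjusted p below 0.05 (limma), beside 6.29% of all detected genes.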

How the data were processed

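RNA of 4 NR8383 samples was read on one-colour Agilent arrays from 100 ng per sample with RNA integrity above 7.5, per the labels' protocols. The arrays were read with Agilent Feature Extraction 11.0.1.1, per the submitters' processing notes. The deposited values used are processed spot intensities on a linear scale and other columns that are flags of 0 or 1; per the file headers, the arrays share 1 slide. Control spots and spots with an outlier flag (1.11% to 1.45%) were left out, and spots of a probe were averaged on the log2 scale. Each array was scaled to its 75th percentile (intensities of 878, 932, 1237 and 831).

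Accessions without versions were matched to RefSeq's gene table of GRCr8 for names: 21109 of 45598 probes (46.3%) matched 1 gene. The headers name the build rn4, so coordinates are given only for the RefSeq promoters. A gene took its brightest probe. A probe with several spots counted as detected when more than 50% of them did. The variance test used limma 3.58.1 in R 4.3.3 (intercept only, trend and robust fit), with Benjamini-Hochberg adjustment at 0.05. It ran over all detected genes (1 more had a missing value and was left out). It was tried on simulated data with a shift on 1 array that was larger than the span of any detected member. That trial therefore does not show its power for the smaller spreads seen here. Other steps used Python 3.11.15, numpy 2.4.6 and pandas 2.3.3.

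The members and lists were chosen with earlier results of these data known. Every member with a named probe is accounted for. Of the lists, genes well above background on only some arrays, those spanning over 2-fold and Slc30a1, Mtf1, Mt1 and Mt2A are given with values. Other list genes are examples. A marker list is not reported in full here. Alternatives covered scaling, background, detection, probe choice, the trend and each replicate left out.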

Additional observations from a re-analysis of the deposited data

Results flagged for a closer look

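Of 31 genes checked (the 26 detected members with Slc30a1, Mtf1, Mt1, Mt2A and Slc25a3), 3 had 1 array set apart from the other 3 by more than Dixon's limit for 4 values (0.857, 0.888 and 0.927 of the gene's whole range for Cox17, Cp and Slc30a6); chance marks about 1 in 20 such groups. Cox17 was set apart on replicate 3 (4.47), Cp on replicate 1 (-1.76) and Slc30a6 on replicate 3 (-1.41). That low value of Slc30a6 is a scaled value. Its intensities before scaling were 431, 449, 466 and 402, highest on replicate 3, and array 3 also had the highest 75th percentile. The dimmer probe of Cp, also detected, did not set replicate 1 apart: it deviated there by 0.029 from its own mean and was lowest on replicate 4 (-0.18). The ranges behind these gaps were narrow, at 1.09-fold for Cox17, 1.07-fold for Cp and 1.30-fold for Slc30a6. The other detected genes of the lists were not part of this count; among them Trpm7 (0.873 of its range, span 1.83-fold), Surf1 (0.855) and Commd7 (0.900) also passed that limit.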

How the results depend on the processing

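No paired analysis was possible because the series holds 1 group. The count of detected members was recomputed under 8 alternatives, 4 on the detection rule and 4 leaving out 1 replicate each; it was 26 in all of them except detection by the majority of the probes of a gene, which left 24 by dropping Atp7b and Slc39a5. Under the same 8, the count for the lists of other zinc and copper genes ranged from 38 (majority of probes) to 46 (positive and significant flag). Hypervariable members numbered 0 under all 15 alternatives, and the adjusted p of Slc39a7 ranged from 0.0977 to 0.982 (limma). No member spanned more than 2-fold without any 1 replicate (0 in each case); 1 did with scaling to the median of each array (Slc39a7), 2 with no filter on dim probes (the undetected Slc30a10 and Slc39a12) and 3 with no scaling (Slc39a2, Slc39a7 and Slc39a11). The members' median SD (0.113, beside 0.144 for all detected genes) was above that of all detected genes under 3 alternatives: 0.280 beside 0.267 with no scaling, 0.193 beside 0.180 with scaling to the median of each array and 0.125 beside 0.123 with normexp. It ranged from 0.0810 to 0.123 without any 1 replicate, below that of all detected genes each time. Genes not well above background have only a bound, so their spread is not read.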
